A study of Mus musculus with 8 samples.

Results

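The genes described here are 9 components of the epithelial tight junction, chosen by symbol: the claudins Cldn1, Cldn2, Cldn3, Cldn4, Cldn7, Cldn10 and Cldn18, occludin (Ocln) and the scaffold ZO-1 (Tjp1). Of these, 8 had a row among the 15047 gene symbols of the expression values, and Cldn18 was not analysed here. Expression was measured by RNA-Seq in pancreas from 8 male mice that form 3 groups. The LFD group (3 C57BL/6 WT mice) was fed a Low-Fat Diet and the HFD group (3 C57BL/6 WT mice) a High-Fat Diet with 60% of calories from fat, for 10 weeks from the age of 4 weeks. The ob/ob group (2 C57BL/6J; ob/ob mice) lacked leptin throughout the body and received standard chow, also grouped at the age of 4 weeks, so genotype and chow differed together from the LFD group. The sample labels name the tissue only as pancreas. The study's text ties these libraries to mice given an orthotopic transplant of mT organoids, which the labels do not mention. Such organoids are cultures from pancreatic tumors of genetically engineered mice in which Pdx1-Cre drives recombination in the pancreas. The tissue could thus hold both host pancreas and graft, and reads of host and graft cannot be told apart here. Values are rlog values, which are gene counts put on the log2 scale, corrected for library size, and shrunken toward each other where counts are low. They are not divided by gene length, so levels are compared between mice. Where a gene is named as the top gene of a list, this is its mean rlog value, which also depends on gene length. Sequencing depth is unknown because no counts were used, and errors are the spread between mice, each of which was 1 animal. Values of a group are listed in the order of its replicates.

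Tight junctions seal the space between neighboring epithelial cells near their apical side. Claudins are small membrane proteins whose extracellular loops pair across the cell border. Some claudins make the seal tighter, whereas others form pores for water and small ions, so the mix of claudins sets what can leak between cells. Occludin is another membrane protein of the strand, and ZO-1 ties the strand to actin through PDZ domains. In the pancreas these junctions line both the acini, which secrete digestive enzymes, and the ducts that drain them.

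Promoters of 4 members are shown, those of Cldn2 and Cldn10 as the pore-forming claudins and those of Cldn4 and Cldn3 as neighbors in the genome. Cldn4 (chr5:134945119-134946934, minus strand) and Cldn3 (chr5:134986214-134987472, plus strand) face away from each other on chromosome 5 of GRCm38, with 39279 bases between them (Gencode M21). Cldn2 lies on chromosome X (chrX:139800828-139811386, plus strand) and Cldn10 on chromosome 14 (chr14:118787908-118875489, plus strand). The other members are Cldn1 (chr16:26356642-26371841, minus strand), Cldn7 (chr11:69964779-69967885, plus strand), Ocln (chr13:100496507-100552718, minus strand) and Tjp1 (chr7:65296165-65527781, minus strand). Cldn3 overlaps the antisense gene Wbscr25, and the sources used here do not say whether the libraries kept strand, so reads of this pair may be mixed. Cldn10 overlaps the rRNA gene n-R5s51 on the other strand. Tjp1 overlaps Gm44794 and Gm44792 on its own strand and the processed pseudogene Gm44795 on the other strand. The 250 bases before each start site come from RefSeq on GRCm38.p6 and are written 5′ to 3′ on the strand of the gene, in lower case. Capitals mark matches, on either strand, to the AP-1 letters TGANTCA, to the letters CAGGTG of an E-box that Snail and ZEB repressors can bind, or to the TATA box letters TATAAA.
Cldn4 (chr5:134946935-134947184, minus strand): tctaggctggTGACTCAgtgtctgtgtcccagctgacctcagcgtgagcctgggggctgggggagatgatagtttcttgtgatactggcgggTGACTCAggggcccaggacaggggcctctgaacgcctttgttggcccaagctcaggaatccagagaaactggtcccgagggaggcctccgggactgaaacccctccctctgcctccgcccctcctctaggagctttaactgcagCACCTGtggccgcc
Cldn3 (chr5:134985964-134986213, plus strand): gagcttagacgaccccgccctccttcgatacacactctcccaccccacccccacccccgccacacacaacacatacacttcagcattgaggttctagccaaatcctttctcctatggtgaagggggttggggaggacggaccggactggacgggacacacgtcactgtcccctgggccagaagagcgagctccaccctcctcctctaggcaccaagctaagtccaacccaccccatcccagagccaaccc
Cldn2 (chrX:139800558-139800807, plus strand): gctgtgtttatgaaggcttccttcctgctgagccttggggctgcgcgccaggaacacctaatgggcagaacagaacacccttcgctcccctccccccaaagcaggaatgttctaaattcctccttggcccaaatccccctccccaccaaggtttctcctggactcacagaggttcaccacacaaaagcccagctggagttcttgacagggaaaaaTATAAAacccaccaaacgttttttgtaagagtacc
Cldn10, first start (chr14:118787621-118787870, plus strand): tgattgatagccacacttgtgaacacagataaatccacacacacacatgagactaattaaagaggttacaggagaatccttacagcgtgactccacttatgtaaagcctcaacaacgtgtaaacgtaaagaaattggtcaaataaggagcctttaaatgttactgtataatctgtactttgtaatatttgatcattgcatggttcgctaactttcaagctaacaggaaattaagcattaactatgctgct
Cldn10, second start (chr14:118854700-118854949, plus strand): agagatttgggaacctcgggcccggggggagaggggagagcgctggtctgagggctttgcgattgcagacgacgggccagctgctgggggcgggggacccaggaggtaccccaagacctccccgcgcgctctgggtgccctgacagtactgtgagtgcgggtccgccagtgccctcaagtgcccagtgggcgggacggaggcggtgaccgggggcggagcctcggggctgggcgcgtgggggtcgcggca

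The Cldn4 window held 2 matches to the AP-1 letters, which begin 240 and 158 bases before the start, and 1 match to the E-box letters, which begins 14 bases before it. The window of its neighbor Cldn3 held none of these letters. The Cldn2 window held TATAAA, from 35 to 30 bases before the RefSeq start, chrX:139800808. That start lies before the Gencode M21 start of the gene, chrX:139800828, so the distance depends on the start chosen. The first Cldn10 start, chr14:118787871, also lies before the Gencode start, chr14:118787908. For both, the bases that follow the RefSeq start were not found in a Gencode M21 transcript of the gene. Among 32851 promoter windows of the same length, 6.75% held the AP-1 letters, 17.2% the E-box letters and 12.4% the TATA box letters. The letters AACCNGTT of a Grainyhead-like site, held by 1.79% of all windows, were in none of the 11 windows of the 8 members. Further E-box letters were found in the second windows of Cldn7 and Ocln, 2 in each. Cldn10 has a pair of starts of unlike composition, with 36% G and C before the first and 72.4% before the second, where the median window has 52.4%. The 2 starts give isoforms with different first loops, but the values are summed per gene and cannot separate them. A match is a description of the sequence and was not tested for binding.

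Cldn2, which forms a pore for water and small cations, was the member with the clearest difference between the diets. The rlog value of Cldn2 was 7.31, 8.10 and 7.80 in the LFD mice, 8.62, 9.90 and 9.82 in the HFD mice, and 8.57 and 7.91 in the ob/ob mice. Every HFD mouse was above every LFD mouse, while 1 ob/ob mouse was above the LFD mice and the other was within their range. LFD averaged 7.74 ± 0.40 (SD, n = 3), HFD 9.45 ± 0.72 (SD, n = 3) and ob/ob 8.24 ± 0.46 (SD, n = 2). The log2 difference between HFD and LFD was 1.71 (standard error 0.38), with an unadjusted p-value of 0.00154 that became 0.175 once adjusted over the 15047 genes (limma). It therefore did not pass the threshold of 0.05 after adjustment with the Benjamini-Hochberg method. Without HFD replicate 1, the HFD mouse closest to the LFD mice, the difference was 2.12 (adjusted p = 0.0126 with limma), in a comparison where 18.7% of all genes had an adjusted p-value under 0.05. Without each other mouse in turn it was at least 1.48 and did not pass after adjustment. Between ob/ob and LFD the difference was 0.50 (standard error 0.42, adjusted p = 0.502), and it ran from 0.17 to 0.83 as single mice were left out. Cldn2 was lower in both ob/ob mice than in all HFD mice, by 1.21 (standard error 0.42), with an unadjusted p-value of 0.0191 and an adjusted p-value of 0.9996. This difference ran from -1.62 without HFD replicate 1 to -0.88 without ob/ob replicate 2. Without HFD replicate 2 its unadjusted p-value was no longer under 0.05. Relative to the epithelial genes described below, it was -0.090.

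Cldn10, which forms paracellular ion channels, had the widest range over mice of all members. LFD mice had rlog values of 9.08, 9.20 and 9.58, HFD mice 9.17, 7.20 and 5.86, and ob/ob mice 8.81 and 6.33. HFD replicate 1 was within the LFD range, and the other 4 obese mice were below it. The range over the 8 mice, 3.72, exceeded that of 98.4% of all genes, whose median range was 1.12. LFD averaged 9.29 ± 0.26 (SD, n = 3), HFD 7.41 ± 1.67 (SD, n = 3) and ob/ob 7.57 ± 1.75 (SD, n = 2). The log2 difference was -1.87 between HFD and LFD (standard error 0.84, adjusted p = 0.258) and -1.72 between ob/ob and LFD (standard error 0.94, adjusted p = 0.330). Between the obesity models it was 0.16 (standard error 0.94), with a 95% interval from -1.97 to 2.29. The difference between HFD and LFD was -2.75 without HFD replicate 1 (adjusted p = 0.0293 with limma), where 18.7% of all genes had an adjusted p-value under 0.05. Without HFD replicate 3 this difference was -1.10 (adjusted p = 0.592 with limma). That between ob/ob and LFD was -2.95 without ob/ob replicate 1 and -0.48 without ob/ob replicate 2.

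**Figure D1:**
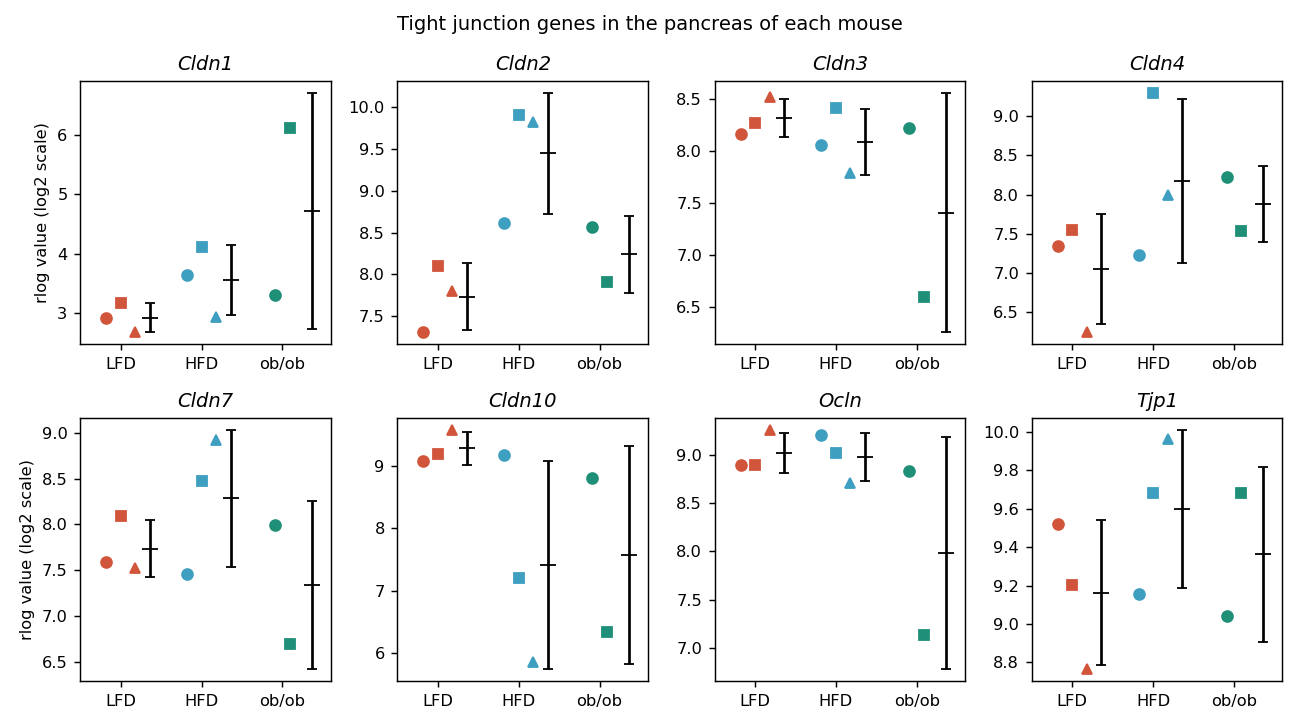
rlog values (y axes, log2 scale, each gene on its own scale) of the 8 tight junction genes in LFD, HFD and ob/ob mice; circles, squares and triangles are replicates 1, 2 and 3, and black bars are the mean ± SD. The 3 HFD mice lie above the 3 LFD mice for Cldn2, and Cldn10 spans 3.72 over the 8 mice.

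The sealing claudins Cldn1, Cldn3, Cldn4 and Cldn7 shared no direction, with the mean of Cldn4 higher and that of Cldn3 lower in both obesity models. Cldn4, a barrier-forming claudin of ducts and other simple epithelia, was at 7.34, 7.55 and 6.25 in the LFD mice. HFD mice had Cldn4 at 7.23, 9.29 and 7.99, and ob/ob mice at 8.23 and 7.54. HFD replicate 2 was the highest and LFD replicate 3 the lowest of all mice, and the groups overlapped. The difference from LFD was 1.12 in HFD (standard error 0.54, adjusted p = 0.281) and 0.83 in ob/ob (standard error 0.60, adjusted p = 0.441). In HFD it was 0.56 without HFD replicate 2 and 0.72 without LFD replicate 3, and in ob/ob 0.43 without LFD replicate 3 and 0.49 without ob/ob replicate 1.

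Cldn3, another sealing claudin and, like Cldn4, a receptor for the enterotoxin of Clostridium perfringens, was at 8.16, 8.27 and 8.52 in the LFD mice. HFD mice had Cldn3 at 8.06, 8.41 and 7.79, and ob/ob mice at 8.22 and 6.60. All mice but ob/ob replicate 2 lay between 7.79 and 8.52. The difference from LFD was -0.23 in HFD (standard error 0.38, adjusted p = 0.749) and -0.91 in ob/ob (standard error 0.42, adjusted p = 0.281). Without ob/ob replicate 2 the latter was -0.097 and without ob/ob replicate 1 it was -1.72, and the HFD difference ran from -0.39 to -0.082 as single mice were left out. The difference Cldn4 minus Cldn3, taken within each mouse and relative to its LFD mean, was 0.45, 0.55 and -1.001 in the LFD mice, 0.44, 2.15 and 1.47 in the HFD mice, and 1.28 and 2.21 in the ob/ob mice. So 4 of the 5 obese mice were above every LFD mouse for the neighboring pair, and HFD replicate 1 was not. This pair was picked after its values were seen, and the difference was not tested.

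Cldn1, a sealing claudin of the skin barrier and other epithelia, was low in most mice and stood out in 1. LFD mice had Cldn1 at 2.91, 3.17 and 2.68, HFD mice at 3.64, 4.10 and 2.93, and ob/ob mice at 3.31 and 6.12. Only ob/ob replicate 2 was above 4.10. Both ob/ob mice were above all LFD mice, with a difference of 1.79 (standard error 0.72), an unadjusted p-value of 0.0367 and an adjusted p-value of 0.249. Without ob/ob replicate 2 the difference between ob/ob and LFD was 0.39, and without ob/ob replicate 1 it was 3.20. The mean rlog value of Cldn1 was 3.61, and rlog shrinks differences more where counts are low.

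Cldn7, a claudin that binds the adhesion protein EpCAM, was at 7.59, 8.09 and 7.52 in the LFD mice. HFD mice had Cldn7 at 7.45, 8.48 and 8.92, and ob/ob mice at 7.99 and 6.69. The groups overlapped, with differences from LFD of 0.55 in HFD (standard error 0.44) and -0.39 in ob/ob (standard error 0.49). The HFD difference ran from 0.23 without HFD replicate 3 to 0.96 without HFD replicate 1, and the ob/ob difference from -1.04 without ob/ob replicate 1 to 0.26 without ob/ob replicate 2.

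Occludin and ZO-1 differed less between the diets than the claudins with large ranges. LFD mice had Ocln at 8.90, 8.89 and 9.26, HFD mice at 9.20, 9.02 and 8.71, and ob/ob mice at 8.83 and 7.14. LFD and HFD overlapped, with a difference of -0.039 and a 95% interval from -0.91 to 0.83. Both ob/ob mice were below all LFD mice, replicate 1 by little and replicate 2 by far. The difference was -1.03 (standard error 0.43), with an unadjusted p-value of 0.0409 and an adjusted p-value of 0.255, and it was -0.18 without ob/ob replicate 2. Without ob/ob replicate 1, the ob/ob mouse nearer to LFD, it was -1.88 (adjusted p = 0.0472 with limma), where 0.405% of all genes passed. That value compares a single ob/ob mouse, so its spread comes from the LFD and HFD mice alone. With the acinar mean described below as a covariate, the Ocln difference between ob/ob and LFD over all 8 mice was -0.42 (standard error 0.32, unadjusted p = 0.221 with limma). LFD mice had Tjp1 at 9.52, 9.20 and 8.77, HFD mice at 9.15, 9.68 and 9.97, and ob/ob mice at 9.04 and 9.68. It had the narrowest range of the 8 members, 1.20, close to the median gene. Its difference from LFD was 0.44 in HFD (standard error 0.29) and 0.20 in ob/ob (standard error 0.32), and the groups overlapped. In HFD it ran from 0.24 without LFD replicate 3 to 0.66 without HFD replicate 1, and in ob/ob from -0.12 without ob/ob replicate 2 to 0.52 without ob/ob replicate 1.

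**Figure D2:**
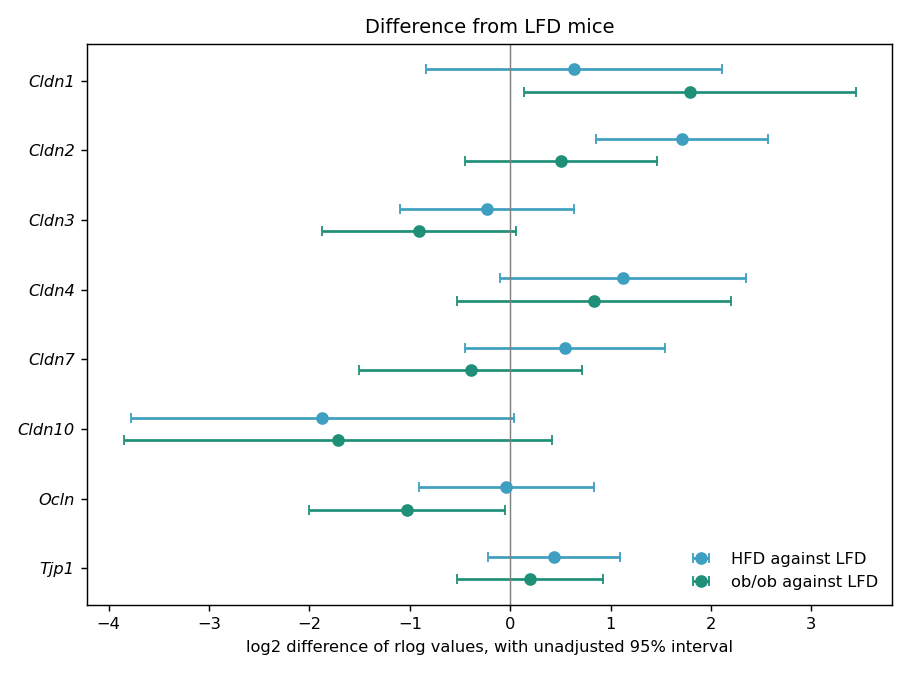
Log2 difference of rlog values from the LFD mice (x axis) for the 8 tight junction genes (y axis) in HFD and in ob/ob mice, as points with unadjusted 95% intervals from limma. The interval excludes 0 for Cldn2 in HFD and for Cldn1 and Ocln in ob/ob mice, and both sets of differences share the 3 LFD mice.

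Ordered by group mean, Cldn2, Cldn4 and Tjp1 ran from HFD over ob/ob to LFD, and Cldn7 from HFD over LFD to ob/ob. Cldn3 and Ocln ran from LFD over HFD to ob/ob, Cldn10 from LFD over ob/ob to HFD, and Cldn1 from ob/ob over HFD to LFD. Of the 16 neighboring steps in these orders, the mice of the groups were separate in 2, HFD and ob/ob for Cldn2 and LFD and ob/ob for Cldn10. None of the 8 members had an adjusted p-value under 0.05 in any comparison, nor did any of the 15047 genes, so percent called was 0 for each. At an unadjusted p-value under 0.05, 1 of 8 members passed between HFD and LFD (Cldn2, higher), beside 19.8% of all genes in either direction and 11.5% higher. Between ob/ob and LFD 2 of 8 passed (Cldn1 higher, Ocln lower), beside 18.8%, of which 11.6% higher and 7.18% lower. Between ob/ob and HFD 2 of 8 passed (Cldn2 and Ocln, both lower in ob/ob), beside 3.91% in either direction and 1.63% lower. Relative to the epithelial genes described below, the differences of Cldn2 and Ocln between ob/ob and HFD were -0.090 and 0.13. For the average of both obesity models against LFD, 2 of 8 passed (Cldn2 higher, Cldn10 lower), beside 25.4%. The shares of members in the comparisons with LFD were thus near those of all genes. Groups did not overlap for 1 of 8 members between HFD and LFD, beside 25.2% of all genes, and for 3 of 8 between ob/ob and LFD, beside 45.9%. They did not overlap for 1 of 8 between ob/ob and HFD, beside 13.3%, and for 0 of 8 between all obese mice and LFD, beside 18.4%. Without HFD replicate 1, Cldn2 (1.31) and Cldn10 (-2.23) passed after adjustment in the average of both models against LFD, with 22.1% of all genes, and without ob/ob replicate 1 Cldn1 (1.92) and Ocln (-0.96) did, with 3.16%, again with a single ob/ob mouse and the spread of the other groups. The median difference of the members was 0.49 in HFD against LFD (0.029 over all genes), -0.098 in ob/ob against LFD (0.039) and -0.48 in ob/ob against HFD (0.012).

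The obese mice lay at unequal distances from the LFD mice. The mean absolute difference of the 8 members from their LFD mean was 0.21, 0.22 and 0.31 in the LFD mice, which enter their own reference and are closer to it for that reason. HFD mice stood at 0.33, 1.13 and 1.16 and ob/ob mice at 0.44 and 1.497. HFD replicate 1 and ob/ob replicate 1 were near the LFD mice and the other 3 obese mice were not. Over all genes the same measure was 0.32, 0.59 and 0.75 in the HFD mice and 0.39 and 0.73 in the ob/ob mice. The residual SD of the fit was 1.32 for Cldn10, above that of 98.7% of all genes, and 0.41 for Tjp1, against a median of 0.34.

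Markers of the cell types of the tissue moved with these mice. All 26 genes of an acinar list were in the values, Amy2a5 being the top gene, so the labelled tissue was found in every mouse. Their share of the sum of all genes on the linear scale was 60.6%, 61.5% and 62.8% in the LFD mice, 59.8%, 40.4% and 21.2% in the HFD mice, and 57.2% and 23.8% in the ob/ob mice. All 26 had a lower mean in HFD and in ob/ob than in LFD, beside 7168 and 7059 of all 15047 genes. Of the 26, 3 and 2 were lower with an unadjusted p-value under 0.05 (limma). These counts were close to the shares of all genes lower at that threshold, 8.35% and 7.18%. The acinar genes moved together over the mice, so they are not 26 separate results. Their mean rlog value was 17.72, 17.97 and 18.24 in LFD, 18.04, 15.92 and 14.03 in HFD and 17.36 and 14.35 in ob/ob mice. The obese mice with the lowest acinar means, HFD replicate 3 and ob/ob replicate 2, were also those with the lowest Cldn10. With the acinar mean as a covariate, the Cldn10 difference was -0.23 between HFD and LFD (standard error 0.18, adjusted p = 0.683) and 0.042 between ob/ob and LFD (standard error 0.20, adjusted p = 0.965). The Cldn2 difference between HFD and LFD was 1.498 in that fit (standard error 0.41, adjusted p = 0.350). In bulk tissue, fewer cells of a type and less RNA per cell cannot be told apart.

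**Figure D3:**
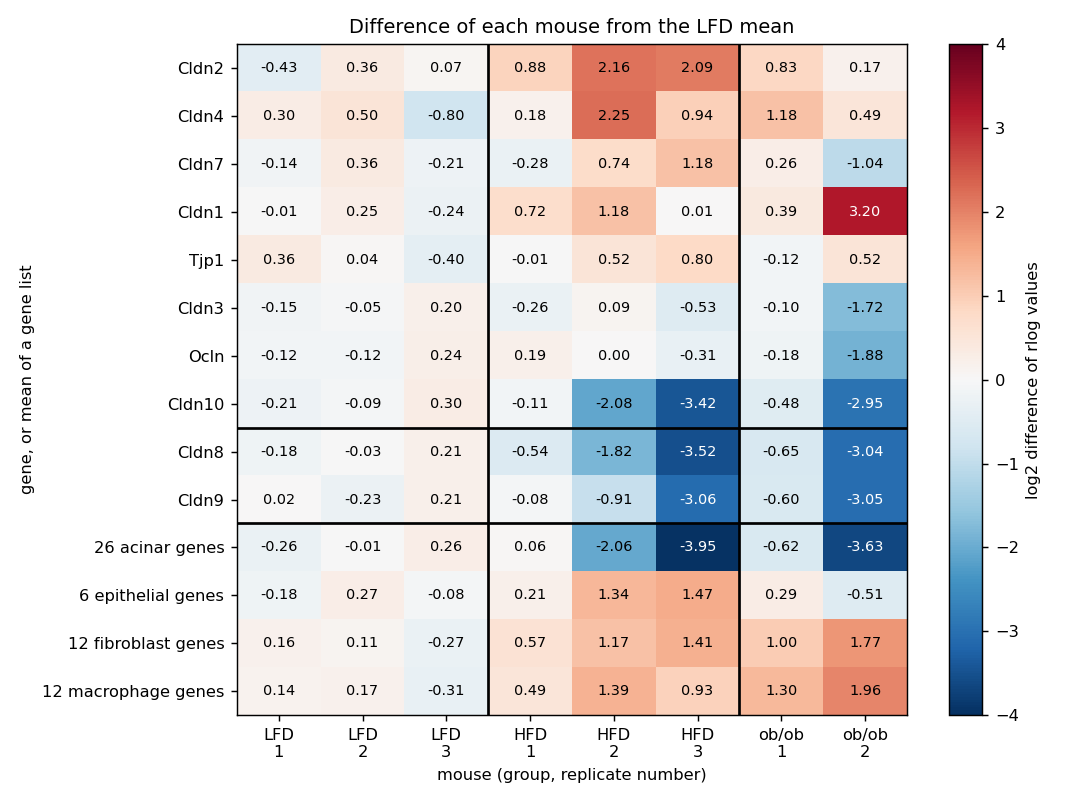
Log2 difference of each mouse (x axis, group and replicate number) from the LFD mean for the 8 members, the claudins Cldn8 and Cldn9, and the means of 4 cell type lists (y axis); the printed number is the difference. Cldn10, Cldn8, Cldn9 and the acinar mean are lowest in HFD replicate 3 and ob/ob replicate 2, and Cldn1 stands out at 3.20 in ob/ob replicate 2.

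The 6 epithelial genes Epcam, Cdh1, Krt7, Krt8, Krt18 and Krt19, of which Krt8 was the top gene, were all in the values. The log2 of their summed linear values was 13.45, 13.83 and 13.61 in the LFD mice, 13.67, 14.74 and 15.03 in the HFD mice, and 13.75 and 13.07 in the ob/ob mice. All 6 had a lower mean in ob/ob than in HFD with an unadjusted p-value under 0.05 (limma), beside 1.63% of all genes. Only 1 of the 6 was lower without overlap of the groups, beside 815 of all 15047 genes. The mean rlog value of the 6 was 10.77, 11.90 and 12.04 in the HFD mice and 10.85 and 10.05 in the ob/ob mice. So ob/ob replicate 1 was above HFD replicate 1. For the 14 genes of a duct list, with Spp1 on top, the log2 sum was 14.20, 14.53 and 14.41 in LFD, 15.55 and 15.44 in HFD replicates 2 and 3, and between 14.56 and 14.78 in the other obese mice, and 5 of them were higher in HFD than in LFD at that threshold, beside 11.5% of all genes. The rlog value of Spp1 alone was 14.06 in ob/ob replicate 2, and the mean rlog value of the list placed this mouse otherwise. That mean was 9.01, 9.31 and 8.99 in LFD, 9.32, 9.87 and 9.98 in HFD and 9.35 and 8.68 in ob/ob mice, so ob/ob replicate 2 was above all LFD mice by the sum and below them by the mean. The duct keratin Krt7 was higher in HFD than in LFD by 1.79 (standard error 0.48, adjusted p = 0.180) and Krt19 by 1.34 (standard error 0.46, adjusted p = 0.203), whereas the duct transcription factor Sox9 was between 6.85 and 7.12 in all 8 mice. Expressed relative to the mean of the 6 epithelial genes of the same mouse, Cldn2 was at -3.07, -2.74 and -2.68 in LFD, at -2.15, -2.00 and -2.22 in HFD, and at -2.29 and -2.14 in ob/ob mice. All 5 obese mice were then above all LFD mice, as held in this direction for 0.977% of all genes. That share depends on the scaling. After it, 24.0% of all genes were higher in the average of both obesity models than in LFD, and 7.73% in HFD. Unscaled Cldn2 of ob/ob replicate 2, 7.91, was within the LFD range. The mean of the 6 epithelial genes in that mouse was 10.05, against 10.38, 10.83 and 10.48 in LFD. Krt7, Krt8, Krt18 and Krt19 are also in the duct list. Cldn3 relative to the same genes was at -2.22, -2.56 and -1.96 in LFD, at -2.71, -3.49 and -4.25 in HFD, and at -2.63 and -3.46 in ob/ob mice. All 5 obese mice were below all LFD mice, as held for 6.67% of all genes. This scaling lowered the median difference of all genes between HFD and LFD from 0.029 to -0.98 and raised that between ob/ob and HFD from 0.012 to 1.13. On this scale the difference between HFD and LFD was 0.70 for Cldn2, -1.24 for Cldn3, 0.12 for Cldn4 and -1.05 for Ocln. For Cldn10 it was -2.88, where HFD replicate 1, at -1.60, was within the LFD range of -1.63 to -0.90 and the other HFD mice were at -4.70 and -6.18. No p-values are given on this scale, because the fit then used a variance shared by all genes and not the spread of each gene between mice. How much of each difference goes with the share of epithelial cells was not tested further.

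**Figure D4:**
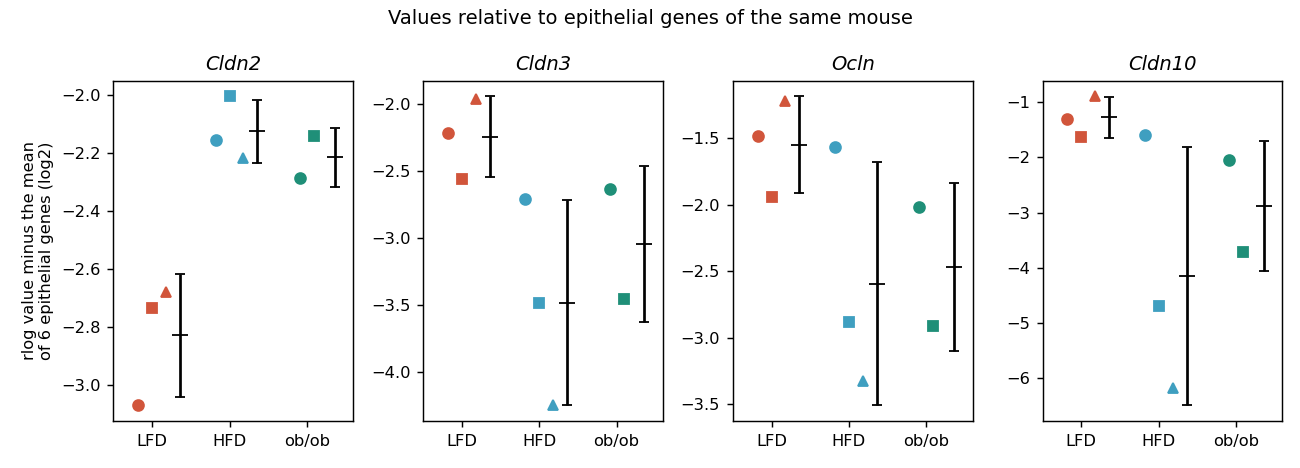
rlog value minus the mean of 6 epithelial genes of the same mouse (y axes, log2) for 4 tight junction genes in LFD, HFD and ob/ob mice; circles, squares and triangles are replicates 1, 2 and 3, and black bars are the mean ± SD. All 5 obese mice lie above the LFD mice for Cldn2 and below them for Cldn3.

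Markers of other cell types were counted in the same way, beside 11.5% of all genes higher and 8.35% lower in HFD and 11.6% higher and 7.18% lower in ob/ob at an unadjusted p-value under 0.05. Of 12 fibroblast genes, with Col3a1 on top, 7 had an unadjusted p-value under 0.05 and were higher in HFD than in LFD, and 10 in ob/ob. The log2 of their summed linear values was 13.91, 13.86 and 13.62 in LFD, 14.30, 14.94 and 15.49 in HFD and 14.81 and 15.88 in ob/ob mice. The same count was 8 and 12 of 12 for macrophage genes, with Lyz2 on top, and their log2 sums were 13.88, 13.56 and 13.42 in LFD, 14.20, 15.15 and 14.33 in HFD and 14.81 and 15.69 in ob/ob mice. For 8 of 12 neutrophil genes in the values, Ltf on top, it was 8 and 4. Among 7 of 8 mesothelial genes, with Msln on top, it was 1 higher and 2 lower in HFD and 2 lower in ob/ob, among 12 endothelial genes, with Pecam1 on top, 1 higher in HFD and 0 in ob/ob, and among 16 islet genes, with Ins2 on top, 0 in HFD and 8 higher in ob/ob. The endothelial counts were at or below the share of all genes. The part of these cells in the values of the tight junction genes was not tested.

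Of 21 other claudins and claudin domain genes, 8 were in the values. Cldn8, a barrier-forming claudin of kidney and other tubules, was at 8.07, 8.22 and 8.46 in LFD, at 7.71, 6.43 and 4.73 in HFD, and at 7.60 and 5.21 in ob/ob mice. All 5 obese mice were below all LFD mice, as held for 9.05% of all genes, and the difference was -1.96 in HFD (standard error 0.78, adjusted p = 0.226) and -1.84 in ob/ob (adjusted p = 0.283). Cldn9 was at 6.47, 6.23 and 6.66 in LFD, at 6.37, 5.54 and 3.39 in HFD, and at 5.85 and 3.41 in ob/ob mice. It was lowest in HFD replicate 3 and ob/ob replicate 2, as were Cldn8 and Cldn10, and HFD replicate 1 was within its LFD range. The differences of Cldn9 were -1.35 in HFD and -1.83 in ob/ob, and those of Cldn6 were -0.60 and -0.40. Cldn5, the claudin of endothelial cells, was higher in HFD than in LFD by 0.96 (standard error 0.33, adjusted p = 0.204) and did not overlap between these groups. Cldn15 was at 8.34 in HFD replicate 3 and between 4.95 and 5.66 in the other 7 mice. At an unadjusted p-value under 0.05, 1 of the 8 was higher and 1 lower in HFD (11.5% and 8.35% of all genes), and 0 passed in ob/ob (11.6% higher and 7.18% lower of all genes).

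Among 35 other tight junction genes, 2 passed the unadjusted threshold upward in HFD and 0 downward, and in ob/ob 0 passed upward and 6 downward. Of all genes, 11.5% passed upward and 8.35% downward in HFD, and 11.6% and 7.18% in ob/ob. F11r, the adhesion molecule JAM-A, was higher in HFD by 0.52 (standard error 0.23, adjusted p = 0.250). Prkcz, an atypical protein kinase C of the polarity complex, differed by -1.47 in ob/ob (standard error 0.40, adjusted p = 0.194), and both ob/ob mice were below all LFD mice. Crb3, an apical polarity protein, differed by -1.24 and Marveld3, a relative of occludin, by -0.91. The other 3 were Pard3, Magi1 and Amotl2, with differences of -0.58, -0.76 and -0.66. Relative to the LFD mean, ob/ob replicates 1 and 2 were at -0.45 and -2.03 for Crb3 and at -0.20 and -1.61 for Marveld3. For Prkcz they were at -0.73 and -2.20. The same mice were at -0.45 and -0.70 for Pard3, at -0.53 and -0.99 for Magi1 and at -0.82 and -0.49 for Amotl2. Of the genes passing downward in ob/ob, all but Amotl2 were thus lower in ob/ob replicate 2 than in replicate 1. Marveld2, which seals tricellular corners, was at -0.41 in HFD and -0.82 in ob/ob relative to LFD, and its partner Lsr at 0.42 and -0.42. The actin-linking protein Cgn was at 0.21 and -0.27 and the scaffold Tjp3 at 0.76 and 0.0077. Amot and Jam2, which were among the genes of this list with the largest mean difference in the obese mice, were higher by 0.75 and 0.59 in HFD and by 0.99 and 0.50 in ob/ob, with unadjusted p-values above 0.05.

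Among 21 genes of adherens junctions, desmosomes and gap junctions, 3 passed the unadjusted threshold upward and 1 downward in HFD (11.5% and 8.35% of all genes), and 0 upward and 6 downward in ob/ob (11.6% and 7.18%). The gap junction genes Gjb2 and Gjb1 had the lowest differences, -1.80 and -1.35 in HFD and -1.99 and -1.88 in ob/ob. The desmosome plaque gene Pkp1 was higher by 1.73 in HFD (standard error 0.72, adjusted p = 0.238) and by 1.72 in ob/ob, and the desmosomal cadherin Dsg2 differed by -0.30 and -1.16. Relative to the LFD mean, ob/ob replicates 1 and 2 were at 0.44 and 2.99 for Pkp1 and at -0.25 and -2.08 for Dsg2. In the same mice Gjb2 was at -0.63 and -3.34 and Gjb1 at -0.69 and -3.06. Nectin3 was higher by 0.66 in HFD and 0.59 in ob/ob and Ctnna1 by 0.59 and 0.57. Epcam, the partner of Cldn7, was higher in HFD by 0.90 (standard error 0.32, adjusted p = 0.211) and differed by -0.070 in ob/ob, and Cdh1 (E-cadherin) by 0.54 and -0.44. In ob/ob against HFD, 20 of the 21 genes had a lower mean in ob/ob (7263 of all 15047) and 5 of them an unadjusted p-value under 0.05 (1.63% of all genes), Cdh1 and Epcam among them. The median difference of the list was -0.51 in that comparison, beside 0.012 over all genes. Averaged over the list, rlog values were 8.44, 8.78 and 8.67 for the HFD mice and 8.36 and 7.83 for the ob/ob mice. So ob/ob replicate 1 was close to HFD replicate 1, and ob/ob replicate 2 was well below all HFD mice.

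**Figure D5:**
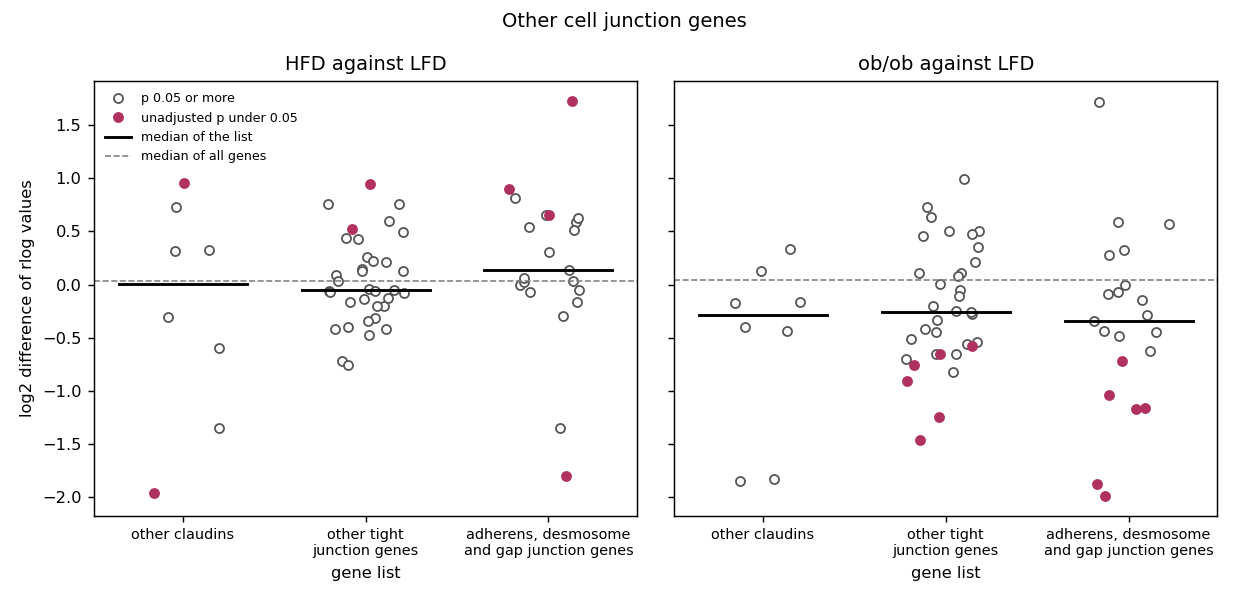
Log2 difference from LFD mice (y axis) of the genes of 3 other junction lists (x axis) in HFD (left) and ob/ob (right); each point is a gene, filled where the unadjusted p-value was under 0.05, with the list median as a line and the median of all genes dashed. In ob/ob mice the filled points lie below 0, and the claudins at the bottom are Cldn8 and Cldn9.

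The genes whose values were most like each member over the 8 mice were named by the highest Pearson r. This is a description, since all 8 mice, which differed in the acinar share of their summed values, enter each r. For Cldn10 they were Nucb2, Cpn1 and 1810053B23Rik, each with r = 0.998 or 0.997. Nucb2 was at 12.37, 12.54 and 12.73 in LFD, at 12.53, 10.82 and 9.77 in HFD and at 12.03 and 10.22 in ob/ob mice. For Cldn2 they were Mal (r = 0.997), an apical membrane protein of epithelia, 2200002D01Rik (r = 0.986) and Serpinb5 (r = 0.980). Mal was at 6.11, 6.74 and 6.40 in LFD, at 7.12, 8.30 and 8.24 in HFD and at 7.26 and 6.56 in ob/ob mice, with the same 2 HFD mice highest as for Cldn2. The gene most like Ocln was Cd24a (r = 0.993), followed by Perp (r = 0.987) of the desmosome and Chmp4c (r = 0.983), all 3 lowest in ob/ob replicate 2. Cldn3 was most like Rab25 (r = 0.981), a small GTPase of epithelial recycling endosomes, Rbbp8nl (r = 0.977) and Dhx32 (r = 0.976). Cldn7 was most like Sft2d2 (r = 0.967), the keratin Krt18 (r = 0.956) and Sowahb (r = 0.955). Cldn1 was most like Lmo1 (r = 0.985), Rab34 (r = 0.975) and Socs5 (r = 0.974), which were also highest in ob/ob replicate 2. Cldn4 was most like Acer3 (r = 0.964), Oas1c (r = 0.963) and Sparcl1 (r = 0.962), and Tjp1 most like Tmem184b (r = 0.970), Znrf1 (r = 0.969) and Ermp1 (r = 0.967).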

How the data were processed

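After FastQC, the authors ran Salmon 0.11.3 on the M18 release of Gencode (GRCm38.p6), summed the transcripts of a gene by tximport and deposited rlog values of DESeq2 1.22.2, which are on a log2 scale. The gene filter they used and the strandedness of the libraries are not given in the sources used here. Salmon splits reads of similar transcripts by probability, so close paralogs carry an uncertainty the values do not show. All 8 columns matched a sample title.

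Differences were tested on the deposited values using limma 3.58.1 (R 4.3.3) over all 8 mice, with group means as coefficients, an empirical Bayes variance with a trend, and Benjamini-Hochberg adjustment over 15047 genes. The step was tested on simulated data. Members and lists were chosen with earlier results of these data known. Named genes were the members, 9 fixed junction genes, the 3 genes with the largest mean difference each way in each junction list, the gene of the highest mean rlog value in each marker list with Krt19, Krt7 and Sox9, and the 3 genes most like each member; other genes named, such as those passing in a list, were chosen after their values were seen. Of the named genes, 1 is not reported here. Medians of the rlog values were between 7.09 and 7.25 in all mice. Batches are not named in the labels, and none were compared. Values were summarized with Python 3.11.15 and pandas 2.3.3.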

Additional observations from a re-analysis of the deposited data

How the results depend on the processing

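Of 500 member differences recomputed under alternatives, 455 kept their direction and their side of the adjusted threshold, 35 turned their direction and 10 came to pass it. The causes of these changes were not tested, except where fewer mice or genes enter by construction. In the fit as reported, 0 genes passed after adjustment in each comparison, and 2985 genes (HFD minus LFD), 2831 (ob/ob minus LFD), 588 (ob/ob minus HFD) and 3825 (the average of both obesity models minus LFD) had an unadjusted p-value under 0.05. Members with an unadjusted p-value under 0.05 numbered 1, 2, 2 and 2 in that order, and other junction genes 8, 12, 9 and 9. With only the groups compared, 1 and 38 genes passed after adjustment in HFD and in ob/ob against LFD, members numbered 2 in HFD against LFD, and in ob/ob against HFD there were 353 genes, 1 member and 4 junction genes at the unadjusted threshold. The average of both models uses all 3 groups and was not run in this way. Without a variance trend, members numbered 1 in each of the comparisons of ob/ob with LFD, of ob/ob with HFD and of the obese mice with LFD. With genes of a mean rlog value of at least 5, which drops Cldn1, there were 5 junction genes in HFD against LFD, 1 member in ob/ob against LFD and 389 genes in ob/ob against HFD. Median centring gave 2 members in HFD against LFD, 1 in ob/ob against HFD, 15 junction genes in the obese mice against LFD, and a Cldn7 difference of -0.00886 there. It also turned the split of genes in that comparison from 2186 higher and 1639 lower to 1823 and 2109, and that in HFD against LFD from 1728 and 1257 to 1490 and 1588. Quantile normalization gave 0 members in ob/ob against LFD and 1 in ob/ob against HFD.

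With the acinar mean as a covariate, 1 gene passed after adjustment in each of the other comparisons than that of HFD with LFD, and 1567, 1503, 1191 and 1666 genes passed unadjusted in the order above. Junction genes then numbered 5, 5, 22 and 2, and members 0 in ob/ob against LFD and 1 in the obese mice against LFD. Directions turned for Cldn3 (0.24), Ocln (0.53) and Tjp1 (-0.000916) in HFD against LFD, for Cldn10 (0.042) and Tjp1 (-0.27) in ob/ob against LFD, and for Cldn7 (-0.086), Ocln (0.054) and Tjp1 (-0.14) in the obese mice. Relative to the epithelial genes, 1939, 27, 159 and 430 genes passed after adjustment and 5890, 1401, 5193 and 2224 unadjusted, with 2 members and 20 junction genes in HFD against LFD and 6 junction genes in ob/ob against LFD. On that scale Cldn1 (-0.37), Cldn7 (-0.46) and Tjp1 (-0.57) turned in HFD against LFD, Cldn3 (0.44), Cldn4 (0.83), Cldn7 (0.17), Ocln (0.13) and Tjp1 (0.88) in ob/ob against HFD, and Cldn7 (-0.37) and Tjp1 (-0.13) in the obese mice. Its calls, among them Cldn10 in HFD (-2.88) and in the obese mice (-2.24) and Cldn1 in ob/ob against HFD (2.27), rest on a variance that limma pooled fully over genes, so they do not reflect the spread of each gene between mice.

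Leaving out each mouse in turn gave 0 to 2812, 0 to 89, 0 to 1 and 0 to 3326 genes after adjustment and 1480 to 5445, 752 to 4075, 369 to 1117 and 2037 to 5824 unadjusted. Members numbered 1 to 5, 0 to 4, 0 to 5 and 0 to 5, and junction genes 0 to 21, 3 to 25, 0 to 24 and 3 to 24. The highest counts after adjustment came without HFD replicate 1, except in ob/ob against HFD, where the 1 gene came without ob/ob replicate 2. Without ob/ob replicate 1, Ocln differed by -1.88 in ob/ob against LFD (adjusted p = 0.0472) and by -0.96 in the obese mice (adjusted p = 0.0477), and Cldn1 by 1.92 in the obese mice (adjusted p = 0.0468), with limma, where a lone ob/ob mouse is assumed to vary like the other groups. Without HFD replicate 1, the obese mice differed from LFD by 1.31 for Cldn2 (adjusted p = 0.0140) and -2.23 for Cldn10 (adjusted p = 0.0272). Ranges that crossed 0 were -0.15 to 0.096 for Ocln in HFD against LFD, -1.04 to 0.26 for Cldn7 and -0.12 to 0.52 for Tjp1 in ob/ob against LFD, -0.25 to 0.40 for Cldn7 in the obese mice, and, in ob/ob against HFD, -0.25 to 2.56 for Cldn1, -1.49 to 0.13 for Cldn3, -0.76 to 0.27 for Cldn4, -1.08 to 1.40 for Cldn10 and -0.56 to 0.084 for Tjp1.

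The replicate numbers name different animals, and same-numbered mice did not deviate together throughout. Across genes, r was -0.060, 0.113 and -0.281 for the LFD and HFD pairs, -0.097 and 0.128 for the LFD and ob/ob pairs, and 0.592 and 0.303 for the HFD and ob/ob pairs. With the number as a replicate block, members numbered 2, 3, 2 and 2 and junction genes 9, 17, 6 and 13, 0 genes passed after adjustment, and the Cldn10 difference between ob/ob and HFD was -0.16. The depth of the libraries is unknown, so what it limits was not assessed, and 2 ob/ob mice give little precision.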
